A study of Homo sapiens with 9 samples.

Results

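Some stretches of the genome belong to 2 protein-coding genes at once, and a protein bound there could be sitting on the RNA of either. The SF3B1 binding sites in such stretches are described here. A site was included when its centre lay inside the RefSeq spans of 2 or more protein-coding genes of GRCh38, which held for 2146 of 96852 sites, or 2.22% (95% Wilson interval 2.12% to 2.31%). Of these, 2140 lay in 2 genes and 6 in 3 genes. They fell into 421 gene sets, a set being the genes that share a site, and involved 809 genes.

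The sites come from iCLIP of K562, an established human leukaemia line. In iCLIP, ultraviolet light crosslinks a protein to RNA, the protein is immunoprecipitated, and the end of the copied fragment marks the contact. The series has 9 libraries: 3 of SF3B1 in cells with the genotype SF3B1 wt/wt, 2 of SF3B1 in cells with SF3B1 K700E/wt from the same supplier, and 4 of U2AF2 in SF3B1 wt/wt cells from another supplier. The mutant is represented by 1 line. The only list used here is attached by the labels to the 3 SF3B1 wt/wt libraries and the other 6 were not analysed here. The list gives positions and strands without a value for each replicate, so no spread between libraries and no test between groups can be given. Its depth is unknown, and the intervals below cover counting error only. Intervals for site counts and densities treat each site as a separate count, although sites lie in clusters, so they may be too narrow. Per its header, the list merges what was reproducible across the replicates of one condition or the other, so single sites cannot be assigned to a genotype. The labels call the source lymphoid, whereas K562 is generally described as a myeloid line with erythroid features. Of 11 erythroid marker genes, 6 held a site, among them TFRC with 121 and TAL1 with 17, while the globin genes HBG1, HBG2 and HBE1 held none. None of the 9 lymphoid marker genes held a site.

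SF3B1 is the large subunit of the SF3b complex in the U2 small nuclear ribonucleoprotein. It clamps the duplex between U2 snRNA and the branch point, a short stretch upstream of the 3′ splice site that is followed by a tract rich in pyrimidines and an AG. Overlapping genes are common in compact genomes. Genes on opposite strands can share sequence tail to tail (their 3′ ends overlap), head to head (their 5′ ends overlap) or nested (one lies wholly inside the other). Genes on the same strand overlap when one is nested or when a read-through transcript runs from a gene into the next. RefSeq lists such a transcript as a separate locus named after both genes.

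For 36 of the 2146 sites, in 20 gene sets, the surrounding sequence was held by a RefSeq promoter window of GRCh38.p14. The following stretches show the letters under sites in the tail-to-tail overlap of APPL1 with ASB14, in the read-through locus RPL17-C18orf32, in the head-to-head overlap of ASCC1 with ANAPC16, and at the first bases of ribosomal protein genes. They are written in the direction of the site's strand, 5′ to 3′, with T for U, and the capitals mark the 5 nt of each binding site.
APPL1 first stretch, chr3:57269475-57269504, plus strand: taactgcatAATTTgcCATTTgactgcaga
APPL1 second stretch, chr3:57269511-57269539, plus strand: acttagttTCTTTtttGTCTTttccacta
RPL17 second stretch, chr18:49491586-49491614, minus strand: ttgacagAATTAcactgTACTTtcctcta
RPL17 first stretch, chr18:49491618-49491642, minus strand: atactgaatgAGTTActgtaagtac
ASCC1, chr10:72216210-72216234, minus strand: accttctccaTTTTTctagtccctg
RPL27A start, chr11:8682783-8682811, plus strand: aaggccttcCTTTTtCGTCTgggctgcca
RPS10 start, chr6:34426054-34426078, minus strand: atgctccttcCTTTCcagccccggt
RPL36A start, chrX:101391005-101391029, plus strand: cggtttctttCTTTCcgcgccgata
The 4 sites in the APPL1 stretches were all those of its overlap with ASB14, and each lay on the strand of APPL1, which had 7 more sites elsewhere.

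Uridine was the most frequent base under these sites. It made up 53.3% of the 5 nt of the 36 sites, against 33.6% of the 10 nt before them and 28.9% of the 10 nt after. Guanine made up 8.89% of the site and 23.1% of the 10 nt before it. The 342 sites in exactly 1 protein-coding gene whose sequence was held by the same windows had 58.2% uridine and 9.77% guanine. The run UUUU, searched on the strand of the site only, occurred in 12 of the 36 windows of 25 nt (33.3%) and in 48.0% of the 342. The middle 25 nt of all 35116 promoter windows, read on both strands, held it in 7.49% of cases. That middle lies before the annotated start, so it is not matched to the sites. CAG occurred in 27.8% of the 36 windows, 31.6% of the 342 and 43.2% of the promoter middles. For UAG the shares were 27.8%, 17.5% and 17.4%. Several of the 36 windows overlap each other, and all lie near an annotated start, so they are a selected sample of the sites.

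Strands had to be known to say which gene a site belongs to. RefSeq promoter windows gave the strand of 690 of the 809 genes, and the sites that a gene had to itself (at least 3) gave it for another 42. Across all genes that had both sources, both were equal in 4697 of 4720 (99.5%). Opposite-strand sets held 1486 sites, or 69.2% of the total (95% Wilson interval 67.3% to 71.2%), in 298 sets. Same-strand sets held 278 sites, or 13.0% (11.6% to 14.4%), in 53 sets. The remaining 382 sites, in 70 sets, had a gene of undetermined strand. All 278 sites of the same-strand sets lay on the strand of their genes. With strands from a gene's own sites only, without the annotation, 401 sites were opposite-strand and 6 same-strand, since fewer genes had a strand.

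Sites in overlaps were concentrated in a few gene sets. The median was 3 sites per set and 120 sets had a single site, while the 60 sets with at least 10 sites held 1111 sites, 51.8% of the total. Chromosome 3 had the most, 253 sites or 11.8%, although it carried 6.20% of the whole list. Chromosome 1 had 7.88% of the overlap sites against 12.9% of the list. Stretches in 2 or more protein-coding genes made up 2.13% of the length covered by such genes. They held 0.0796 sites per kb against 0.0742 in stretches of exactly 1 gene, a ratio of 1.07 (95% exact interval for counts 1.03 to 1.12).

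Of 300 opposite-strand pairs with a site in the overlap, 84 had a single site, and 197 of the other 216 had all their sites on 1 strand. RefSeq spans gave 3210 overlapping protein-coding gene pairs, and 427 of them (13.3%) had at least 1 site in the overlap. Of all protein-coding genes, 38.8% had a site anywhere in the span. An overlap is never longer than the spans of its genes, and these shares were not matched for length. Tail-to-tail pairs had sites most often, 217 of 763 pairs (28.4%, 95% Wilson interval 25.4% to 31.7%), with 1120 sites. Opposite-strand nested pairs followed with 50 of 333 (95% interval 11.6% to 19.2%) and 290 sites, and head-to-head pairs had 33 of 487 (6.78%, 4.87% to 9.36%) and 79 sites. Head-to-head overlaps were also the shortest, with a median of 0.684 kb against 1.71 kb tail to tail and 7.34 kb nested. Per kb of overlap, tail-to-tail pairs had 0.211 sites, nested pairs 0.0559 and head-to-head pairs 0.0442. In the 216 pairs with at least 2 sites, 1380 of 1405 sites counted per pair, 98.2% (97.4% to 98.8%), lay on the strand that had more sites in that pair. By construction this share cannot fall below 50%.

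The fullest overlap was that of XPO5, the exporter of microRNA precursors, with POLR1C, a subunit of RNA polymerases I and III. It spans chr6:43522334-43562407, or 40.1 kb of 2 genes lying tail to tail. All 55 sites were on the minus strand, that of XPO5, between positions 43524056 and 43562395. XPO5 had 15 more sites outside the overlap, and POLR1C had 11 sites of its own outside it but none inside. Neighbouring sites within the overlap were a median of 141 nt apart, and the largest gap between neighbours was 12.7 kb.

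UBP1, a transcription factor gene, overlaps FBXL2, which encodes an F-box protein of a ubiquitin ligase, over 34.4 kb at chr3:33388336-33422698. All 41 sites there were on the UBP1 strand, with a median distance of 64 nt between neighbours, and each gene had 2 sites elsewhere. PHIP, which encodes a bromodomain and WD repeat protein, had 39 sites in its overlap with IRAK1BP1 and 44 outside it, whereas IRAK1BP1 had 0 inside and 1 outside. The overlap lies at chr6:78934419-78979411. In these overlaps the partner gene had 2 sites or fewer in the rest of its span.

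JAK2, the kinase that signals from the erythropoietin receptor, overlaps INSL6, an insulin-like peptide gene, over 138 kb at chr9:4991976-5129948. All 36 sites were on the JAK2 strand, and INSL6 had no site anywhere. These 36 were most of the sites of JAK2, which had 39 on its strand. WTAP, a subunit of the complex that writes N6-methyladenosine into RNA, lies wholly within the span of SOD2, the mitochondrial superoxide dismutase gene, at chr6:159726693-159756319. All 36 sites in it were on the WTAP strand, and SOD2 had 2 sites outside. A count that drops sites in more than 1 gene would leave WTAP without a site.

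DNAJC2, a chaperone gene nested in PMPCB, had 33 sites on its strand in the overlap at chr7:103312289-103344767. A single site there lay on the strand of PMPCB, a subunit of the mitochondrial processing peptidase, which had 16 sites elsewhere. ANKRD28, a regulatory subunit of protein phosphatase 6, had 33 sites in its overlap with the biotinidase gene BTD and 25 outside, while BTD had none in either place. ACSM3, an acyl-CoA synthetase gene of mitochondria, had 32 in its overlap with ERI2 and 8 outside, and NCBP1, the large subunit of the nuclear cap-binding complex, had 24 in its overlap with the DNA repair gene XPA and 18 outside. ERI2 and XPA each had 5 sites elsewhere and 0 in the overlap. The strands of ACSM3, ERI2 and NCBP1 came from their own sites. The metalloprotease gene ADAM17 had 21 sites in its overlap with IAH1 and 25 outside, with 0 for IAH1 in both.

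**Figure D1:**
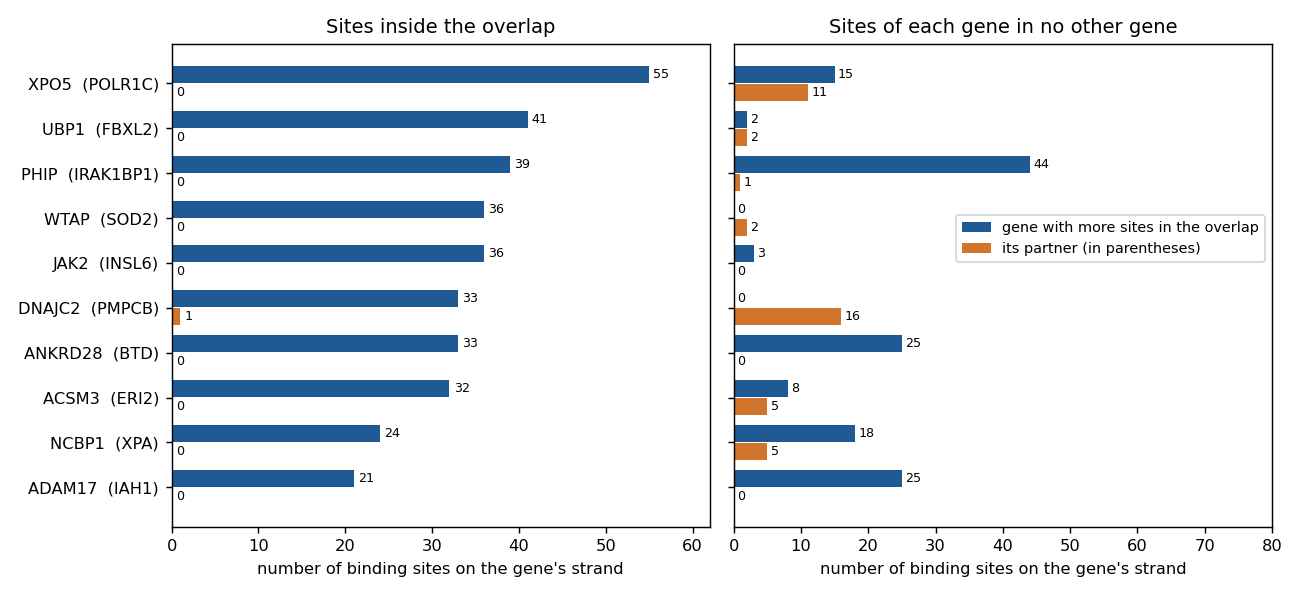
Number of binding sites on each gene's strand for the 10 opposite-strand gene sets with the most sites, inside the overlap (left) and in stretches of no other protein-coding gene (right). Blue bars are the gene with more sites in the overlap and orange bars its partner; in 9 of the 10 sets the partner has 0 sites in the overlap, and only PMPCB has 1.

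The gene that carried the sites of an overlap was often, but not always, the one with more sites elsewhere. Among the 281 opposite-strand pairs with sites on a single strand, the 84 with 1 site included, the carrier had more sites outside the overlap in 155 pairs, fewer in 91 and as many in 35. The median was 4 sites outside for the carrier and 1 for its partner. In 155 pairs the partner had at least 1 site elsewhere. Among 48 nested pairs of this kind, the inner gene carried the sites in 38 pairs (229 sites) and the outer gene in 10 pairs (24 sites). An inner gene has no span outside the overlap and so can have no site elsewhere. By definition, the carrier could not have more sites elsewhere than its partner in those 38 pairs, nor the partner in the 10. Of the 314 genes that carried opposite-strand sites, 87 had all their sites in overlaps, and 29 of these had at least 5 sites. These included RPL35A with 16, ERLEC1 with 14 and the ribosomal protein gene RPL24 with 12. RPL35A, ERLEC1 and RPL24 are inner genes of nested pairs, so all their sites lie in an overlap by definition. The 87 genes were not divided into nested and other genes.

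Both strands were bound in 19 of the 216 opposite-strand pairs with at least 2 sites, or 8.80% (95% Wilson interval 5.70% to 13.3%). As a background, 0.788% of genes with at least 2 sites of their own had sites on both strands. Those sites lie in stretches with a protein-coding gene on 1 strand only, whereas the pairs have a gene on each strand. The shares therefore differ in what they could hold by definition. Of the 19, 17 were tail to tail. The 5 pairs with the most sites on the lesser strand were DNAJC9 with FAM149B1, HNRNPAB with PHYKPL, SPSB3 with EME2, FANCA with ZNF276, and RINT1 with EFCAB10.

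In the overlap of FAM149B1 and DNAJC9, a histone chaperone gene, at chr10:73232272-73244504, 3 sites lay on the plus strand of FAM149B1 and 6 on the minus strand of DNAJC9. The nearest sites of opposite strand were 6670 nt apart, so each gene's sites kept to its own side of the overlap. HNRNPAB, which encodes a ribonucleoprotein of the hnRNP family, had 7 sites in its overlap with PHYKPL at chr5:178207144-178211163, against 2 for PHYKPL. Here the sites were interleaved: the 2 PHYKPL sites lay between HNRNPAB sites, and the nearest opposite pair was 315 nt apart. EME2, which encodes a subunit of a structure-specific endonuclease, had 3 sites and SPSB3 had 2. EME2 had sites 37 nt apart and SPSB3 sites 9 nt apart, with 216 nt between the strands at the closest point.

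FANCA, a Fanconi anaemia repair gene with 107 sites outside the overlap, had 3 sites in its overlap with the zinc finger gene ZNF276, which had 2. The closest opposite sites were 155 nt apart. RINT1, a vesicle tethering gene, had 2 sites 35 nt apart, and EFCAB10 had 2 sites 44 nt apart at the other end of the same 2.55 kb. No opposite sites of any of these sets were closer than 119 nt, the value in the overlap of RBM4 and RBM4B, which are paralogs whose reads may map to either gene.

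TYMS, the thymidylate synthase gene, overlaps ENOSF1 tail to tail at chr18:662986-673578. ENOSF1 is known for transcripts antisense to TYMS. Of the 13 sites in the overlap, 12 were on the TYMS strand and 1 on the ENOSF1 strand. The ENOSF1 span held 87 sites in all, and 74 of these lay in no other gene.

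**Figure D2:**
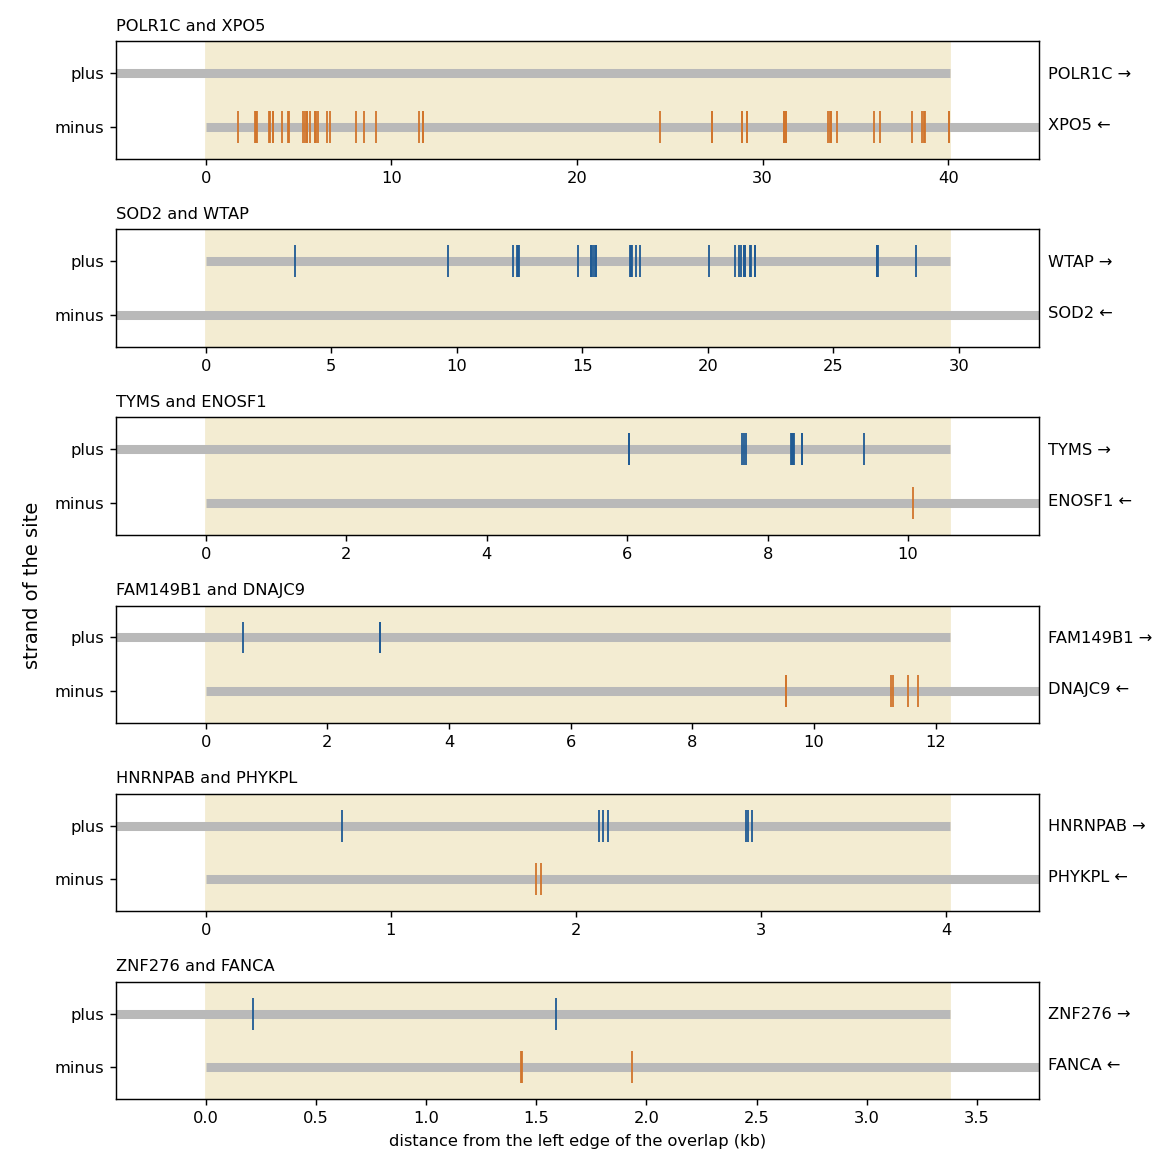
Sites in 6 opposite-strand overlaps, with distance from the left edge of the overlap in kb on the horizontal axis and the strand on the vertical axis. Grey bars are gene spans with arrows for their direction, ticks are sites (blue plus, orange minus) and the shaded area is the overlap; all sites of POLR1C with XPO5 and of SOD2 with WTAP lie on 1 strand, whereas the other 4 overlaps have sites on both.

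In genes that reach beyond their overlaps, the overlaps were on average poorer in sites than the rest of the same genes. The comparison covered 1088 overlapping genes with at least 5 sites on their strand. Genes lying wholly inside overlaps, such as WTAP and RPL35A, have no such rest and were left out. The earlier ratio of 1.07 counted all stretches and both strands, and so is a different measure. They had 0.155 sites per kb inside the overlap and 0.273 outside, a ratio of 0.567 (95% exact interval for counts 0.538 to 0.597). The density inside was higher in 176 genes (16.2%) and lower in 912, of which 824 had no site inside, with a median overlap of 1.49 kb. In genes that overlap only head to head the ratio was 0.245 (0.184 to 0.321), and in those that overlap only tail to tail it was 0.759 (0.708 to 0.814). In genes with same-strand overlaps only it was 1.07 (0.916 to 1.24), an interval that includes 1. Gene by gene, however, the density inside was lower in 67 of these 86 genes and higher in 19, and 59 had no site inside.

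Stretches at gene ends were then compared, of equal length except where stated. Among 3476 genes without overlap, 32.5% had a site in the last 1708 nt of the span (95% Wilson interval 30.9% to 34.0%). Among 243 tail-to-tail genes whose overlap covered that stretch, 47 did, or 19.3% (14.9% to 24.8%). The 3476 genes held 63521 sites outside the stretch, out of 96852 in the list, and the 243 genes held 4740. Both groups were thus rich in sites, and the shares at gene ends given here do not stand for all genes. The density in the stretch relative to the rest of the gene was 2.33 (2.26 to 2.41) without overlap and 0.933 (0.769 to 1.12) with it. Relative to the stretch just before it, the last 1708 nt had a ratio of 0.723 (0.691 to 0.756) in 3420 genes without overlap. In 452 tail-to-tail genes, the overlap relative to the stretch before it had 0.556 (0.503 to 0.614). Here the length was that of each gene's overlap and not 1708 nt, so these 2 ratios are not matched for length. Without overlap, the last stretch was thus richer than the rest of the gene but poorer than the stretch just before it. In the first 595 nt, 7.87% of 3481 genes without overlap had a site (7.02% to 8.81%), against 4 of 123 head-to-head genes, 3.25% (1.27% to 8.06%). The density ratio there was 0.963 (0.883 to 1.05) without overlap and 0.329 (0.132 to 0.680) with it. At the 3′ end the intervals are apart on each of these measures, though less far for the stretch just before, where the lengths compared are unlike. The density intervals ignore the clustering of sites, so their being apart is a description and not a test. At the 5′ end they are apart for the density ratio, which rests on 7 sites in head-to-head genes, and meet for the share of genes with a site. The spans are the outermost in RefSeq, and the transcript ends used in these cells were not determined.

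**Figure D3:**
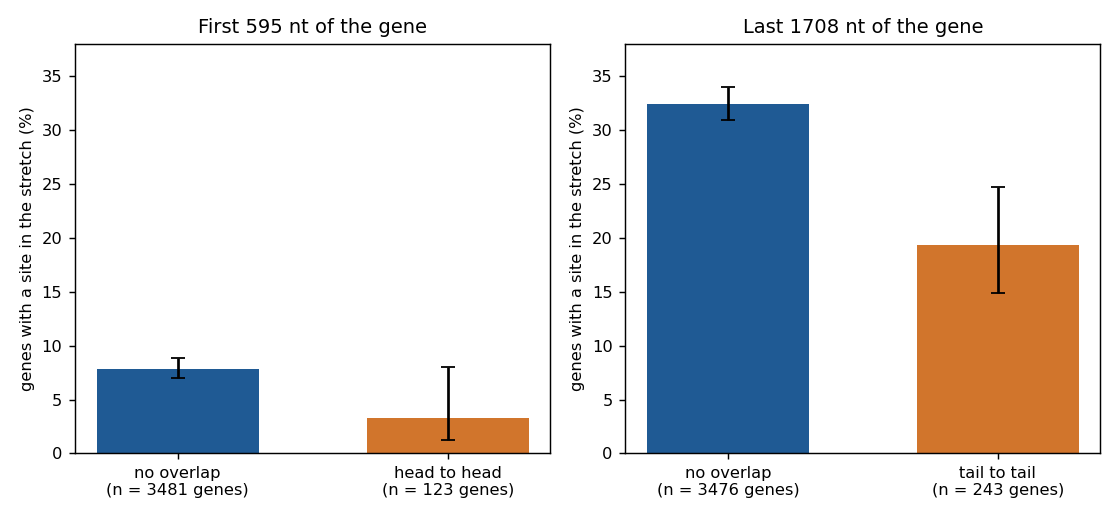
Percentage of genes with at least 1 site in the first 595 nt (left) and the last 1708 nt (right) of the span, for genes without overlap and for genes whose overlap covers the stretch; error bars are 95% Wilson intervals. At the 3′ end 19.3% of the tail-to-tail genes shown have a site against 32.5% of the genes shown without overlap. The genes shown are rich in sites and do not stand for all genes.

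A small group of sites lay at the very start of a gene. Of 1874 overlap sites in a gene with an annotated start on their strand, 11 had their centre in the first 20 nt, or 0.587% (95% Wilson interval 0.328% to 1.05%). Of 77335 sites in 1 gene, 52 did, or 0.0672% (0.0513% to 0.0882%). By the rule that chose the sites, many overlaps lie at gene ends, and no comparison matched for this was made. A ribosomal protein gene was in the set for 7 of the 11 sites, with 6 such sets: RPL27A, RPL15, RPL24, RPL17, RPS10 and RPL36A, noticed after the values were seen. Ribosomal protein genes were not counted among the 52 sites in 1 gene, so whether their share is particular to overlaps cannot be said. The centre was 2 nt and 8 nt from the RPL27A start, 3 nt from that of RPS10 and 6 nt from that of RPL36A. The other 4 sites were at the starts of PRPF38A, CSKMT, ATF5 and HMGA1. In the letters printed above, the RPS10 site, the RPL36A site and the first RPL27A site consist of C and T, whereas the second RPL27A site holds a G. The site at the RPL17 start, which is not printed, also holds G.

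Same-strand sites came mostly from read-through loci. Of the 278 sites, 180 (64.7%, 95% Wilson interval 59.0% to 70.1%) lay in a locus whose symbol joins those of 2 other protein-coding genes. A further 11 sites in 3 sets, TBC1D7, EDEM2 and TSC22D4, lay in loci whose symbols join the gene to a name outside that rule, which would make 191 (68.7%, 63.0% to 73.9%). In all classes together the rule gave 309 such sites, 14.4% of the overlap sites. Such a site lies in both the gene and the read-through locus by definition, and its position cannot tell the transcripts apart. The largest set was TTLL3, a tubulin glycine ligase gene, with the locus ARPC4-TTLL3, where 33 sites lay at chr3:9809727-9836356, all on the plus strand. The first gene of that locus, ARPC4, a subunit of the actin-nucleating Arp2/3 complex, had 13 sites. RBM27, an RNA-binding protein gene, had 25 sites with the locus RBM27-POU4F3, and 0 lay in POU4F3, a transcription factor gene of sensory cells. RPL36A had 15 with RPL36A-HNRNPH2, ABCF2 had 13 with ABCF2-H2BK1, ZNF117 had 11 with ERV3-1-ZNF117, ARHGAP11A had 9 with ARHGAP11A-SCG5 and ASB3 had 8 with GPR75-ASB3.

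The sequence between the 2 genes of a read-through locus belongs to the locus and to neither component gene. Of 95 such loci, 31 held a site. A locus of unknown strand took the strand of a component gene here, as for 4 of the 28 loci with a site and a strand, ATP5MF-PTCD1 among them. Counting only sites on the strand of the locus, over the whole span of each gene, both genes had sites in 8 of the 28 loci, only the first in 11, only the second in 4 and neither in 5. Between the genes there were 50 sites, but 47 of them lay on the other strand and 3 on that of the locus. The 29 sites between ATP5MF and PTCD1, counted above as of undetermined class, were in CPSF4, a cleavage and polyadenylation factor gene, the 14 between GPR75 and ASB3 in ERLEC1, and the 4 between RPL36A and HNRNPH2 in GLA. The 3 sites on the strand of their locus were in ANKHD1-EIF4EBP3, JMJD7-PLA2G4B and TMED7-TICAM2. Over the 27 loci with a site, a gap and a known strand, this made 0.00633 sites per kb of gap against 0.127 in the component genes, both on the strand of the locus. ARMCX5-GPRASP2 differed, with 10 sites on its strand that lay outside both component genes and not between them. These 10 sites and the 3 between genes lie in the span of their locus alone, so they are not among the 2146 sites in overlaps.

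**Figure D4:**
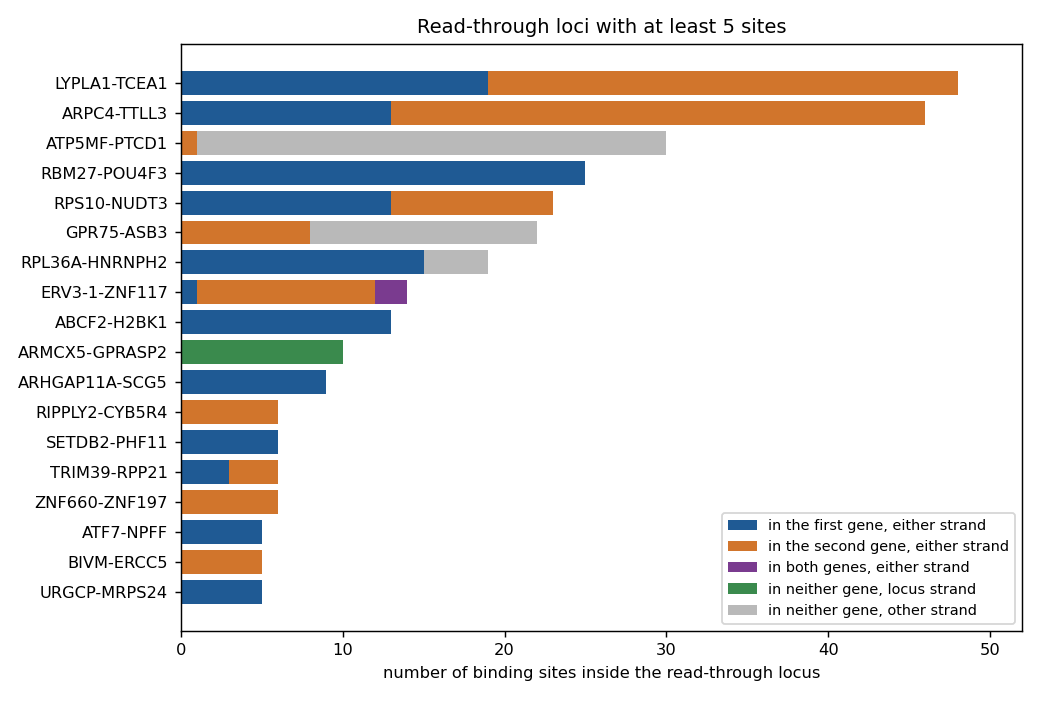
Number of sites inside each read-through locus with at least 5 sites, divided by whether they lie in the first gene, the second gene or both (either strand) or in neither component gene. Sites in neither gene on the other strand (grey) occur in ATP5MF-PTCD1, GPR75-ASB3 and RPL36A-HNRNPH2, and sites in neither gene on the locus strand (green) only in ARMCX5-GPRASP2 among the loci shown. The green sites lie in the locus alone and are not among the 2146 sites in overlaps.

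By the same rule, 98 same-strand sites lay outside read-through loci, or 87 without those 11. BRIX1, a ribosome assembly gene, and TTC23L shared 18 sites at chr5:34915711-34925682, and neither had a site elsewhere on its own strand. The span of TTC23L held 8 more on the other strand, in its overlap with RAD1. ADAMTSL4 shared 8 with LOC124904417, at 7.54 sites per kb. SRSF4, an SR splicing factor gene, shared 4 sites with MECR and had 35 of its own.

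The sites of undetermined class were assigned as far as 1 known strand allowed. Of 314 sites in 60 pairs with a single known strand, 244 lay on it and 70 on the other strand. RPL5 with DIPK1A had 28 sites, all opposite to the strand of DIPK1A. The 28 sites of UQCRC2 with PDZD9 and the 24 of PSMC2, a proteasome ATPase gene, with SLC26A5 were all on the strand of UQCRC2 and of PSMC2.

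Among all protein-coding genes with a site, 10.4% had one in an overlap, and the lists of splicing, RNA decay and erythroid genes were not tested against that share. Of 25 splicing factor genes, 22 had a site and 2 had one in an overlap, SRSF4 and SRSF9, the latter with 4 sites, all on its own strand and none on that of GATC. Of 7 genes of nonsense-mediated decay and RNA decay, all 7 had sites, but only SMG5 had 1 in an overlap, and that site lay on the strand of its partner TMEM79. Of 10 haem and erythroid genes, 5 had sites and none had one in an overlap. The 62 protocadherin and UGT1A genes, whose clusters share exons, had no site at all.

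Sites in overlaps were paired at short range about as often as the sites of the whole list. A partner on the same strand 25 to 45 nt away was found for 794 sites, 37.0% (95% Wilson interval 35.0% to 39.1%), against 36.4% of the whole list. The share was 36.7% in opposite-strand sets and 34.2% in same-strand sets (28.9% to 39.9%). There were 491 pairs 25 to 45 nt apart and 115 pairs 46 to 66 nt apart, a ratio of 4.27, against 3.57 for sites in exactly 1 gene. The most frequent distance between 15 and 99 nt, after summing over 3 adjacent distances, was 37 nt in both. Neighbours were a median of 246 nt apart in overlaps and 199 nt in single genes.

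**Figure D5:**
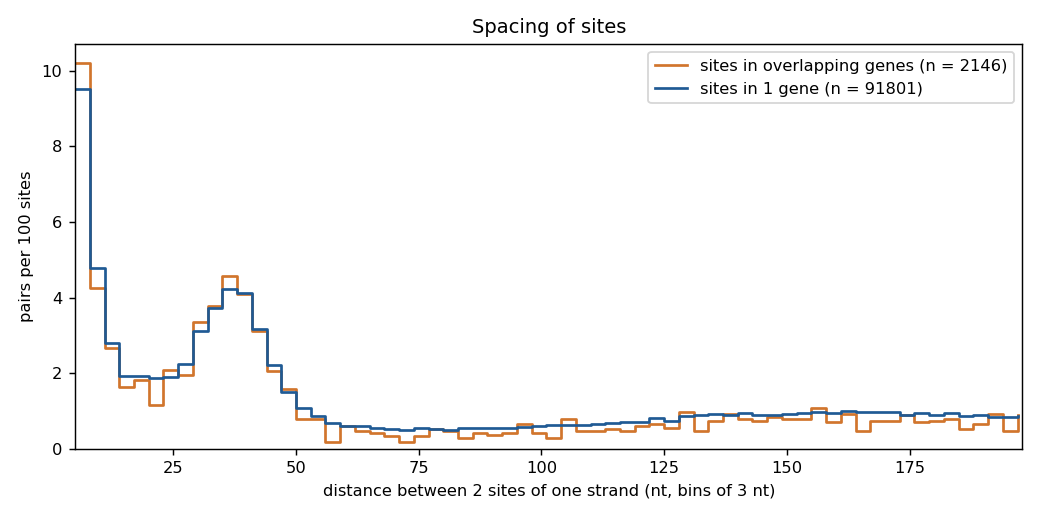
Pairs of sites on the same strand per 100 sites, by the distance between them in bins of 3 nt, for the 2146 sites in overlapping genes (orange) and the 91801 sites in exactly 1 protein-coding gene (blue). Besides the high counts at the shortest distances, both curves have a peak near 37 nt.

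Other annotated RNA genes also covered some of these sites. Long non-coding RNA genes covered 41 of them, 1.91%, against 3.80% of sites in 1 protein-coding gene. MicroRNA genes covered 5, 0.233% against 0.0697%, a higher share that rests on few sites. No snoRNA gene covered any of the 2146 sites, which allows a share of up to 0.140%, and the share among sites in 1 gene was 0.0458%.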

How the data were processed

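1 BED list of iCLIP binding sites was analysed, which the labels tie to the 3 SF3B1 samples of unmutated cells. Per the file headers, the authors merged sites of 5 nt that all replicates of either condition reproduced. The deposited positions and running numbers have no unit other than position and order, and the deposited score was 0 in every row. FastQC 0.11.8, STAR 2.7.3a and 2.6.1b, UMI-tools 1.0.0, bedtools 2.27.1 and the builds GRCh38.p10 and GRCh38.p12 are named in the submitters' processing notes without their roles. The site caller is not given in the sources used here, and the depth is unknown.

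Positions were made 1-based. Gene spans came from a RefSeq table and strands and sequences from RefSeq promoter windows (250 nt before to 50 nt after a start) of GRCh38.p14. Genes without a window (119 of the 809 here) took the majority strand of at least 3 sites of their own, and 77 stayed undetermined. Exons were not used here. Named are the 10 opposite-strand and 10 same-strand sets with the most sites, the 5 pairs with the most sites on the lesser strand, sets with a gene of fixed lists, and further sets chosen after their values were seen. The members and lists were chosen with earlier results of these data known. No hypothesis test was made. Wilson intervals are for shares, exact binomial intervals for ratios of densities, both at 95%. Procedures were tested on simulated data. Alternatives changed the position of a site, merging, read-through loci, strand rules and spans. Python 3.11.15, NumPy 2.4.6, pandas 2.3.3, SciPy 1.17.1 and matplotlib 3.10.9 were used.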

Additional observations from a re-analysis of the deposited data

How the results depend on the processing

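Of 27 recalculations of 6 general results, 22 stayed within 1.5 times for counts or within the interval for shares and ratios, and 5 moved. Leaving out read-through loci lowered the same-strand sites from 278 to 100, since fewer genes were counted, and all sites in overlaps to 1840. Strands from a gene's own sites only, an alternative chosen after seeing the data, gave 401 opposite-strand and 6 same-strand sites, since fewer genes had a strand. Overlaps of at least 1 kb gave a density ratio of 0.642 in place of 0.567; the cause was not tested. A partner 31 to 41 nt away was found for 26.4% of sites in place of 37.0%, since the span is narrower. Of 56 recounts of 28 named gene sets, 55 stayed within 1.5 times, and ADAMTSL4 with LOC124904417 went from 8 to 5 with 1 site per running number. No paired analysis was possible because replicates have no separate values in it, and none could be left out for the same reason.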
